A study of Mus musculus with 16 samples.

Results

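The duodenum and the jejunum of the same mice were compared by RNA-Seq of sorted Lgr5 stem cells. The comparison used 10 of the 16 libraries, which were the duodenal and the jejunal library of each of 5 mice, paired by mouse. Obese female Lgr5eGFP mice, kept on a high-fat diet before the operation, received vertical sleeve gastrectomy (VSG, the removal of most of the stomach) or sham surgery. Mice B13, B14 and B8 had VSG and mice B10 and B1 had sham surgery. All were studied 4 weeks later, fasted overnight and then given a liquid meal, so that neither an unoperated mouse nor a mouse on chow stood among them. GFP is made from the Lgr5 gene in this strain, and GFP+ cells were sorted after immune, endothelial, apoptotic and dead cells had been gated out. A sixth mouse with both segments, A12 (VSG), was left out of the pairs because its jejunal library resembled ileum, and 4 ileal libraries were used only for orientation. The low-mapping libraries that the study had excluded were not analysed here.

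Intestinal stem cells (ISCs) sit at the crypt base and carry Lgr5, the receptor that raises their response to Wnt signals. Their daughters divide and then mature into absorptive enterocytes or into secretory goblet, Paneth, tuft and hormone cells. The small intestine is also patterned from its upper to its lower end. The duodenum is known for iron absorption, for enteropeptidase and for bicarbonate, the jejunum for the uptake of sugars, peptides and fat, and the ileum for bile acid and vitamin B12 uptake. GATA4, HNF4 and CDX transcription factors are known to take part in that patterning.

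Each library's values are counts that the authors normalized separately within each segment. They were joined by gene and rescaled together, so that a typical gene had the same level in every library, and are called rescaled counts below. In most genes the deposited values are not whole reads times a single factor per library. Whether they carry a factor per gene was not tested, and the sources used here describe none. Such a factor, if it differed between the tables of the 2 segments, would enter the difference. No such factor was seen in 3638 of the genes tested, whose values were whole reads in all 10 libraries, and 11 of the genes called below as higher in the duodenum and 67 of those higher in the jejunum were among them. A difference is given on the scale of log2(rescaled count + 1), as duodenum minus jejunum, with its moderated SE from the limma fit named below. That SE draws the variance of each gene toward a trend over all genes. It is therefore not the SE of the 5 mice's differences alone. The 10 libraries had an implied 23.8 to 63.6 M reads, and 65.1% to 73.4% of genes were listed at 0 in a library. A gene was called at a p under 0.05, an adjusted p under 0.2 and an absolute difference above 0.5, the study's own thresholds, in limma with mouse as a block and Benjamini-Hochberg adjustment. Adjusted p-values below come from that fit.

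Stem cell, proliferation and enterocyte markers were compared first, as a check of the sorted cells. All 16 stem cell markers were higher in the duodenum by their mean difference, with a list median of 0.77, but 0 of 16 were called. All 15 proliferation genes had higher means in the duodenum as well (median 0.72, 0 of 15 called), although in B14 their summed level was 48550 in the duodenum and 49760 in the jejunum. Over all genes tested, 0.269% were called higher in the duodenum and 1.44% in the jejunum, so that a short list would often hold no call. Of 10 mature enterocyte markers, 4 were called higher in the jejunum and 1 in the duodenum (median -0.65). The medians of the stem cell and enterocyte lists were furthest from 0 in mouse B10. Its jejunal library had a summed stem cell marker level of 27650, against a median of 88630 over the 5 jejunal libraries and a range of 93060 to 139600 in the duodenum. Olfm4, a stem cell marker, stood at 8766 in that library and at 35170 to 40220 in the other 4 jejunal libraries. Lgr5 itself was listed at 0 there, although the cells were sorted by its reporter, and stood at 514 to 2445 in the other jejunal libraries and at 716 to 2141 in the duodenum. The 2 segments overlapped for Lgr5, which was higher in the duodenum in 2 of 5 mice (adjusted p = 0.64 in limma). In the bulk libraries, fewer cells of a type and less RNA per cell cannot be told apart.

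Mouse by mouse, the median difference of the 16 stem cell markers was 0.87 in B13, 0.086 in B14, 0.29 in B8, 2.22 in B10 and 0.22 in B1. The median of the enterocyte markers was -0.89, -0.024, -0.69, -1.52 and -0.71 in the same order. Mouse B14 had the medians nearest to 0 in both lists, and its list medians are given beside the largest lists that follow. Goblet and Paneth markers moved without a common direction. Goblet markers were higher in the jejunum in B13, B14 and B1 (median -1.34, -1.47 and -1.93), and Paneth markers ranged from -1.32 in B14 to 2.15 in B10. Pancreas acinar genes (10 of 12 tested, 0 called) reached a summed level of 1347 to 10010 in the duodenum and 268 to 2374 in the jejunum, and stomach and Brunner gland genes (6 of 11 tested, 0 called) reached 933 to 5858 and 152 to 1334. Within every mouse of the pairs the stomach and Brunner gland sum was higher in the duodenum. The duodenal sums of B13, B14, B8, B10 and B1 were 1062, 933, 3247, 1796 and 5858. The jejunal sums were 373, 699, 1253, 152 and 1334. The pancreas sum was lower in the duodenum in B8 (1575 against 1980). The part of these cells in the differences below was not tested.

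Of 12992 genes tested, 35 were called higher in the duodenum (0.269%) and 187 higher in the jejunum (1.44%). At an adjusted p under 0.05 in limma, 8 and 34 genes remained. All 187 genes of the jejunal group had the same direction in all 5 mice, as did 34 of the 35 of the duodenal group. The exception was Xist, the RNA that silences an X chromosome, which was higher in the duodenum in 4 of 5 mice. The calls rest on these same 5 differences, so a shared sign among called genes is no separate support. Lack of overlap was rarer. In 22 of the 35 genes all 5 duodenal libraries lay above all 5 jejunal libraries, and in 55 of the 187 genes the order was the opposite. Over all genes tested, 141 (1.09%) and 174 (1.34%) showed these patterns. The median difference of all genes was 0.10, with 7515 genes higher in the duodenum and 5477 in the jejunum.

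Single mice and the model changed the number of calls. Without B13, 10 genes were called higher in the duodenum and 30 in the jejunum, without B14 21 and 147, without B8 12 and 59, without B10 24 and 119, and without B1 14 and 89. With A12 included, 85 and 277 were called, without the mouse block 17 and 22, and in limma without its trend 7 and 6. On the values as deposited, without joint rescaling, the duodenum had 3841 calls and the jejunum 139, and the median of all genes moved from 0.10 to 0.66. Each mouse's difference in stem cell markers was added as a covariate, a choice made after seeing the data. Limma then called 0 genes in either direction, with 305 and 657 genes at an unadjusted p under 0.05. All 35 and all 187 main calls kept their direction. That fit gives the difference at equal stem cell marker sums, while the sum was higher in the duodenum in every mouse. The part of stem cell content in the calls was not tested.

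**Figure D1:**
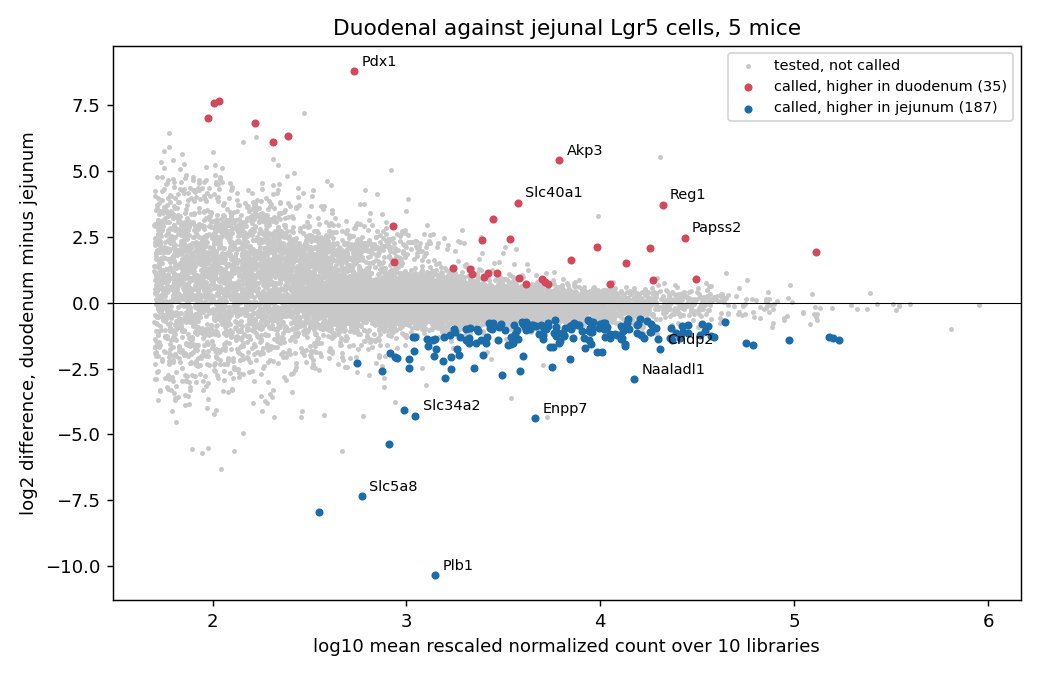
Each point is 1 of 12992 genes. The x axis is the log10 mean rescaled count over the 10 libraries and the y axis the log2 difference, duodenum minus jejunum. Red points are the 35 genes called higher in the duodenum and blue points the 187 called higher in the jejunum. Low genes spread widely around 0 without being called, while most of the blue points lie at high levels between about 0.5 and 3 below 0.

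The promoters of the 2 called genes with the lowest p in each direction, among those with a promoter entry in RefSeq (GRCm38.p6), are shown for orientation. Each is the 250 bases before an annotated transcript start, all on the plus strand. For Reg1 that start lies inside the gene as placed by GENCODE M21 (78422711 to 78428667). They lie at chr6:78425733-78425982 (Reg1), chr1:87124704-87124953 (Akp3), chr11:118987931-118988180 (Enpp7) and chr16:4036786-4037035 (Dnase1, the secreted nuclease, chosen here by its p). Capitals mark the letters of the GATA motifs AGATAA and TGATAA, the HNF4 motif AAAGTCC, and the CDX motifs TTTATTG and TTTATGG, searched on both strands.
Reg1: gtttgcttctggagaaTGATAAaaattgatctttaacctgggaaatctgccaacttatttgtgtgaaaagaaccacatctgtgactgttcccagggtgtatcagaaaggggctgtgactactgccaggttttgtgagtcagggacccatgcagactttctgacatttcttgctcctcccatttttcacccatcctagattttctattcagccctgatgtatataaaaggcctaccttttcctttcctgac
Akp3: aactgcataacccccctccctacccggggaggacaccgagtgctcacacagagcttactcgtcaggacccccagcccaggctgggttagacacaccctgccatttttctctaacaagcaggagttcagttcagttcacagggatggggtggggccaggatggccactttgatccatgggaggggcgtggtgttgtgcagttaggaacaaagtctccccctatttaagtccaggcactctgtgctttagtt
Enpp7: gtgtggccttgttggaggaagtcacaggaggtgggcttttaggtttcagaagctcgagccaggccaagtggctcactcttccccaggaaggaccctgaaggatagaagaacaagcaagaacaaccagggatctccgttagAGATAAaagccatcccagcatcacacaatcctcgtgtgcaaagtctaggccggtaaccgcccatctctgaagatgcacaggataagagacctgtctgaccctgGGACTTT
Dnase1: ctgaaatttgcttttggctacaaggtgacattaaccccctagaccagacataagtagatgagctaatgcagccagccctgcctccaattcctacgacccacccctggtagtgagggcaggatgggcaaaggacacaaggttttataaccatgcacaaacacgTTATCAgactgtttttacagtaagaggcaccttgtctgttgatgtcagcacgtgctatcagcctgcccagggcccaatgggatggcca
The Reg1 and Dnase1 promoters held 1 GATA match each, the Enpp7 promoter 1 GATA and 1 HNF4 match, and the Akp3 promoter none of these letters. Of all 27025 promoters, 16.9% held a GATA match, 3.66% an HNF4 match and 6.76% a CDX match in these 250 bases. Among the 9353 genes tested that had an entry, the shares were 9.72%, 3.84% and 4.16%. Entries were found for 25 of the 35 and 144 of the 187 called genes, under 80% of each group. Motif shares of the called genes were not compared with these shares.

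Reg1 and Akp3 had the lowest adjusted p of the genes higher in the duodenum, and larger differences in lower genes follow. Reg1, a secreted lectin of the regenerating family (chromosome 6), stood at 19430, 43620, 25410, 47770 and 59340 in the duodenum of B13, B14, B8, B10 and B1. In the jejunum of the same mice it stood at 2069, 3201, 2374, 3740 and 2540. The lowest duodenal library was above the highest jejunal library by a wide margin. The difference was 3.73 ± 0.20 (moderated SE, n = 5 mice, adjusted p = 0.00037 in limma). Akp3, the duodenal form of intestinal alkaline phosphatase (chromosome 1), stood at 2663, 5913, 3064, 24630 and 24190 in the duodenum and at 152, 258, 55.9, 465 and 186 in the jejunum. The sham mice had the highest duodenal levels of Akp3, and the segments did not overlap (difference 5.42 ± 0.43, adjusted p = 0.0038 in limma). The related Alpi differed less, by 0.91 ± 0.19 (adjusted p = 0.12), and its segments overlapped.

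Regional transcription factors were called in both directions. Pdx1, the homeodomain factor of the pancreas and upper duodenum, stood at 468, 962, 1180, 1032 and 1681 in the duodenum. In the jejunum it was listed at 0 in 4 libraries and at 50.9 in B13 (difference 8.80 ± 1.43, adjusted p = 0.052 in limma). The size of such a difference depends on the constant added before the logarithm. Nkx6-3, which is not on the list of regional factors, a homeodomain factor of the lower stomach and duodenum, stood at 147, 105, 259, 264 and 305 in the duodenum and was listed at 0 in all 5 jejunal libraries (adjusted p = 0.090). Onecut2 stood at 4370 to 7543 in the duodenum and 258 to 2058 in the jejunum (difference 2.44 ± 0.40, adjusted p = 0.055). In the other direction, Osr2, a zinc-finger factor, had 5.34 times the mean level in the jejunum, at 3745 ± 774 against 701 ± 243 (SD, n = 5), with no overlap (adjusted p = 0.026). Maf and Klf4 were also called higher in the jejunum, by 1.06 ± 0.21 and 1.13 ± 0.23. Of the 19 factors of the list tested, 2 were called higher in the duodenum (Pdx1 and Onecut2) and 3 in the jejunum. Of all genes, 0.269% and 1.44% were called. The other 14 factors of the list were not called (list median -0.25). Gata4, a factor of the upper small intestine, was among the latter, at 7268 ± 1072 and 6545 ± 719.

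Of the iron and folate genes, 1 was called. Slc40a1, ferroportin, the iron exporter of the basal membrane, stood at 2089, 4978, 2835, 16240 and 8614 in the duodenum and at 535, 108, 542, 1549 and 160 in the jejunum. No jejunal library reached the lowest duodenal one (difference 3.80 ± 0.59, adjusted p = 0.051 in limma). The other 10 genes tested in that list were not called, and the list median was 0.39. Cybrd1, the duodenal iron reductase, was listed at 0 in all 5 jejunal libraries and stood at 280, 1.197, 400, 2153 and 139 in the duodenum, and did not pass (adjusted p = 0.23). The importer Slc11a2 (1.18 ± 0.38, adjusted p = 0.38) and the ferritin chain Fth1 (0.69 ± 0.17, adjusted p = 0.22) did not pass either. No gene of the calcium list was called (0 of 6), although S100g, the calcium-binding calbindin, had higher values in all 5 duodenal than in all 5 jejunal libraries (1729 ± 442 against 313 ± 251, adjusted p = 0.39).

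Papss2, Slc13a1 and Sult6b2 were noticed as a group after their values were seen. Papss2, which makes the sulfate donor of sulfotransferases, stood at 30360, 44650, 39300, 57560 and 54230 in the duodenum and at 7094, 5863, 5030, 21450 and 6955 in the jejunum. The jejunal library of B10 was the highest of its segment, still below all 5 duodenal libraries (difference 2.48 ± 0.25, adjusted p = 0.0084 in limma). Slc13a1, a sodium-sulfate cotransporter, differed by 2.39 ± 0.43 (adjusted p = 0.076), and Sult6b2, a sulfotransferase, by 3.18 ± 0.31 (adjusted p = 0.0084). Neither overlapped between segments.

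Among the other genes of the duodenal group, Tmprss15, the enteropeptidase that activates trypsinogen, stood at 183, 219, 113, 327 and 170 in the duodenum and was listed at 0 in all 5 jejunal libraries (adjusted p = 0.091 in limma). It was the single member of the peptide list that was higher in the duodenum. Slc1a2, a glutamate transporter, was listed at 0 in 3 jejunal libraries and stood at 54.0 and 40.8 in the other two, against 96.5 to 638 in the duodenum (adjusted p = 0.14). Otop3, a proton channel of the otopetrin family, differed by 2.93 ± 0.61 (adjusted p = 0.12) with overlap between the segments. Chosen after their values were seen, Dmbt1, a mucosal glycoprotein that binds bacteria, stood at 199000 ± 58820 in the duodenum and 59100 ± 38170 in the jejunum (adjusted p = 0.025). The stress chaperones Hspa1a and Hspa1b differed by 2.11 ± 0.24 and 2.10 ± 0.27. They are nearly identical copies, and the assignment of reads between them is uncertain.

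**Figure D2:**
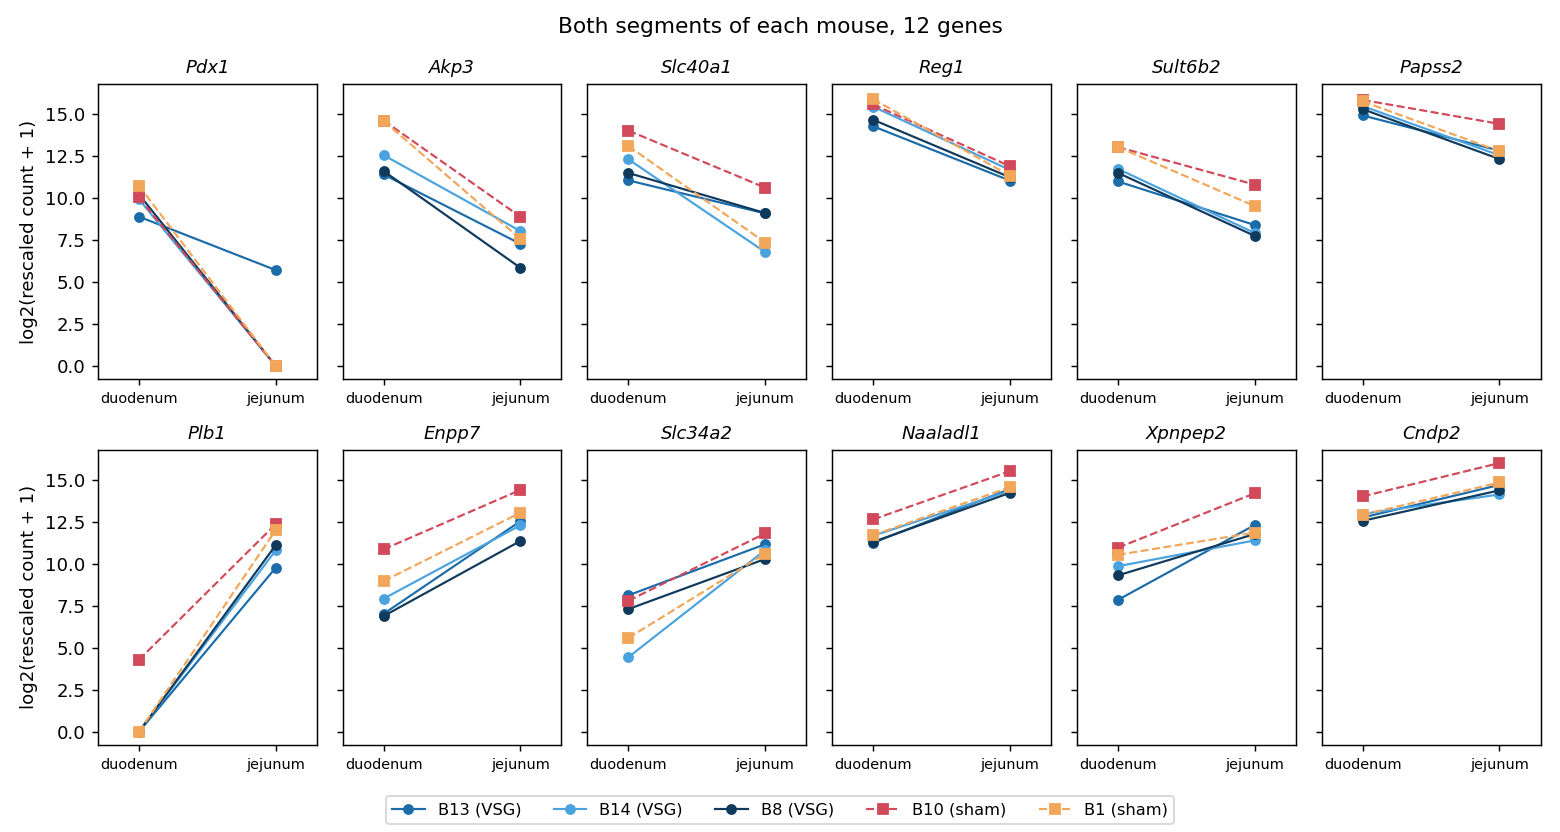
Lines join the duodenal and the jejunal library of each mouse for 12 genes, with log2(rescaled count + 1) on the y axis, circles for VSG and squares for sham mice. All 5 lines fall toward the jejunum in the upper 6 genes and rise in the lower 6. Mouse B10 has the highest jejunal value in each of the lower 6 genes.

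Peptide digestion and uptake was the list with the most genes called. Of its 19 members, 16 were called higher in the jejunum, 1 in the duodenum and 2 were not called. The shares of all genes were 1.44% and 0.269%, and the list median was -1.20. The lists were chosen with earlier results of these data known, so the counts describe them and are no test. Slc15a1, the proton-coupled transporter of di- and tripeptides, had 4.09 times the mean level in the jejunum (4036 ± 2425 against 16490 ± 14550, difference -1.86 ± 0.21, adjusted p = 0.017 in limma). The brush-border peptidases Ace, Mep1a, Anpep, Enpep, Mep1b and Dpp4 differed by -1.62 to -1.14, and the amino acid transporters Slc6a19, Slc36a1, Slc3a2, Slc3a1, Slc16a10, Slc7a8 and Slc7a7 by -1.41 to -0.86. Slc6a19, the main sodium-coupled carrier of neutral amino acids, was higher in the jejunum in all 5 mice. The list median was -1.40 in B13, -0.54 in B14, -1.05 in B8, -1.60 in B10 and -1.13 in B1, with 18 of 19 members higher in the jejunum in every mouse. In B14 the peptidases named above ranged from -1.48 (Dpp4) to -0.25 (Anpep, which is also an enterocyte marker), and the amino acid transporters from -1.24 (Slc6a19) to -0.096 (Slc7a7).

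Another called member, Naaladl1, a peptidase of the glutamate carboxypeptidase family (chromosome 19), had the lowest adjusted p of all genes. It stood at 2419, 3237, 2504, 6335 and 3309 in the duodenum of B13, B14, B8, B10 and B1 and at 22190, 20660, 18960, 46280 and 23900 in the jejunum. The jejunal mean was 7.41 times the duodenal mean, and the difference of -2.90 ± 0.14 (adjusted p = 0.00027 in limma) ranged from -3.20 in B13 to -2.67 in B14. Peptidases that were not on the list were called in the same direction. Xpnpep2, the membrane aminopeptidase P that cleaves before proline, differed by -2.60 ± 0.44 (adjusted p = 0.062), but by -4.45 in B13 and only -1.32 in B1. Chosen after their values were seen, the cytosolic enzymes Pepd, which splits dipeptides that end in proline, Cndp2, a dipeptidase, and Lap3, a leucine aminopeptidase, were higher in the jejunum with no overlap. Pepd stood at 3811, 2964, 2773, 6375 and 4176 against 14700, 10990, 9180, 29500 and 11620 (adjusted p = 0.0038). Cndp2 stood at 6845, 7958, 5983, 16370 and 7689 against 26240, 17730, 21000, 64760 and 29030 (adjusted p = 0.0072). The membrane dipeptidase Dpep1 differed by -1.70 ± 0.17 (adjusted p = 0.0084), with its highest duodenal library, B10, above the lowest jejunal library.

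Lipid digestion formed the next largest group of the jejunum. Enpp7, the alkaline sphingomyelinase of the brush border (chromosome 11), stood at 128, 241, 117, 1849 and 499 in the duodenum and at 5886, 4979, 2605, 21350 and 8364 in the jejunum. Even the high duodenal value of B10 lay below the lowest jejunal value (difference -4.38 ± 0.31, adjusted p = 0.0022 in limma). Asah2, the neutral ceramidase that acts after it in sphingolipid breakdown, differed by -1.65 ± 0.21 (adjusted p = 0.025, chosen after its values were seen). Plb1, the brush-border phospholipase B, was listed at 0 in 4 duodenal libraries and at 18.4 in B10, and stood at 862, 1764, 2184, 5202 and 4061 in the jejunum (adjusted p = 0.0084). Of the 25 genes of fat absorption, 10 were called higher in the jejunum and 0 in the duodenum, against 1.44% and 0.269% of all genes. The other 15 were not called, and the list median was -0.67 (-0.51 in B14). The called members were Enpp7, the apolipoproteins Apoa1, Apoa4, Apoc2 and Apoc3, the fatty acid binding protein Fabp2, the fatty acid proteins Cd36 and Slc27a4, and the sterol transporters Npc1l1 and Abcg8. Without Enpp7 they differed by -1.42 to -0.73. Apoa4 stood at 83400 ± 47970 in the duodenum and 220200 ± 185700 in the jejunum (adjusted p = 0.093), and its segments overlapped.

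Several of the largest differences toward the jejunum were in solute carriers, while the carriers Slc40a1, Slc13a1 and Slc1a2 were called in the opposite direction (above). Slc5a8, a sodium-coupled carrier of short-chain fatty acids and lactate, stood at 9.45, 0, 18.9, 81.7 and 0 in the duodenum and at 1510, 960, 1034, 1161 and 1112 in the jejunum (adjusted p = 0.052 in limma). The jejunal values were alike in all 5 mice. Slc34a2, a sodium-phosphate cotransporter, stood at 277, 20.7, 156, 221 and 47.0 against 2279, 1789, 1240, 3559 and 1542 (adjusted p = 0.036). Slc23a1, a vitamin C transporter, differed by -2.87 ± 0.62 (adjusted p = 0.13) and Slc5a4b, of the sodium-glucose family, by -2.73 ± 0.34 (adjusted p = 0.024), and the segments overlapped for both. Slc5a12, a second lactate carrier, and Slc28a1, a nucleoside transporter, chosen after their values were seen, differed by -2.50 ± 0.43 and -1.57 ± 0.24. Against 1.44% of all genes, 3 of 14 genes of sugar digestion and uptake were called, all higher in the jejunum. They were lactase (Lct), trehalase (Treh) and the gluconeogenic Pck1 (-1.57 ± 0.16, adjusted p = 0.0084 in limma). The sugar list had a median of -0.23 over the 5 mice but of 0.30 in B14, where 9 of its 14 genes were higher in the duodenum.

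Of 20 xenobiotic genes, 7 were called, all higher in the jejunum (median -0.75, and -0.21 in B14). They were the carboxylesterases Ces2a, Ces2c and Ces2e and the cytochromes Cyp2b10, Cyp2d26, Cyp2j6 and Cyp3a25, and Cyp2b10 had the largest difference, -1.996 ± 0.322. Of 13 bicarbonate and ion transport genes tested, 2 were called higher in the duodenum, 2 in the jejunum and 9 were not called. The median of that list was -0.22, and 0.11 in B14. The guanylins, peptides that act on the intestinal guanylate cyclase, were both called higher in the jejunum. Guca2a stood at 1744 ± 535 in the duodenum and 9466 ± 2800 in the jejunum (adjusted p = 0.023 in limma), and Guca2b differed by -1.36 ± 0.19. Of 9 defence genes, Reg3a and Duox2 were called higher in the jejunum by 1.67 ± 0.23 and 2.06 ± 0.39 on the log2 scale, opposite to Reg1. Of 14 gut hormone genes, 1 was called, the incretin Gip (9857 ± 6008 in the duodenum and 16880 ± 4547 in the jejunum, adjusted p = 0.14). Single genes were called higher in the jejunum in the goblet list (Zg16), the bile acid list (Slc51a, a basolateral bile acid exporter) and the retinoid list (Aldh1a1). Limma called 0 of 9 Notch, 0 of 7 MHC class II, 0 of 11 Paneth and 0 of 9 tuft genes tested. With 0.269% and 1.44% of all genes called higher in the duodenum and the jejunum, lists this short would often hold no call. Few members of the remaining lists were high enough to be tested, namely 2 of 10 immune, 5 of 11 stroma and vessel and 1 of 39 Hox genes, and 0 of these were called. At an unadjusted p under 0.05 over all genes, 512 were higher in the duodenum and 712 in the jejunum.

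Among the remaining genes of largest difference, Clca4a, of the calcium-activated chloride channel regulator family, differed by -5.35 ± 1.27 (adjusted p = 0.18 in limma) and was low in 1 jejunal library, at 16.7 in B8 against 619 to 3764 in the others. Pmp22, a membrane protein best known from myelin, was listed at 0 in 4 duodenal libraries and at 1.65 in B8, and stood at 14.3 to 1564 in the jejunum (adjusted p = 0.12). Susd2, a membrane protein, differed by -4.07 ± 0.56 (adjusted p = 0.033), and Fam118a by -2.60 ± 0.62 (adjusted p = 0.18). Dnase1 and Vnn1, the pantetheinase, chosen after their values were seen, differed by -2.14 ± 0.18 (adjusted p = 0.0038) and -1.99 ± 0.24 (adjusted p = 0.024), with no overlap in either gene.

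**Figure D3:**
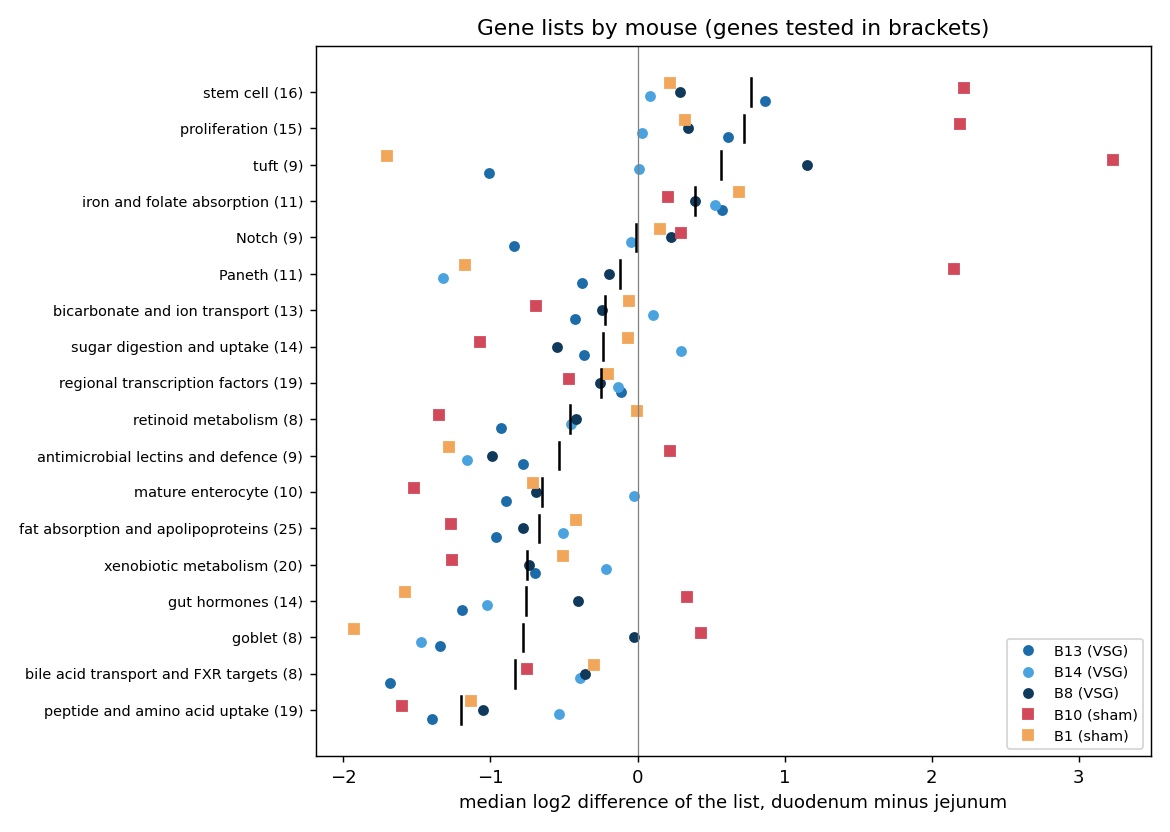
The x axis is the median log2 difference of a gene list, duodenum minus jejunum, with 1 symbol per mouse (circles VSG, squares sham) and a black bar at the median of the members' mean differences. Lists with 8 or more genes tested are shown, apart from the pancreas list. The peptide list lies left of 0 in all 5 mice, while the stem cell and proliferation lists lie furthest right in B10.

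Whether the difference between segments itself differed between VSG and sham mice was tested on each mouse's difference, 3 mice against 2. Limma called 0 of 12992 genes (0%), with 590 genes at an unadjusted p under 0.05 and a smallest adjusted p of 0.92. Naaladl1 differed by -2.93 after VSG and -2.86 after sham surgery, Reg1 by 3.47 and 4.11, and Pepd by -1.86 and -1.84. Slc23a1 stood further apart, at -4.03 and -1.13. Without B1, which left B10 as the single sham mouse and assumed that it varied like the VSG mice, 1381 genes were called. The exact sign-flip test of a single gene over 5 pairs cannot give a two-sided p below 0.0625.

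The libraries outside the pairs were placed on the same scale, with no test. In the duodenal library of A12, 64.4% of all genes tested lay on the duodenal side of the midpoint. So did 24 of the 35 (68.6%, near that share) and 182 of the 187 called genes (97.3%). That library had a summed mature enterocyte level of 189200, against 378400 to 688900 in the paired duodenal libraries. Its summed stem cell level was 185400, against 93060 to 139600. The part of this cell content in the 97.3% was not tested. In that library Reg1 (16770), Akp3 (4949) and Pdx1 (917) were high and Naaladl1 (1231) was low. The 4 ileal libraries, of mice B8, B9, B10 and B1, continued beyond the jejunum, by their mean, for 62.2% of all genes tested. They did so for 27 of the 35 (77.1%) and for 127 of the 187 genes (67.9%, near the share of all genes). Naaladl1 rose to 109500 to 235700 and Slc34a2 to 14300 to 32470 in the ileum. Pdx1 was listed at 0 in all 4 ileal libraries and Reg1 in 3 of them. Other genes turned back: Slc13a1 was higher in the ileum (6756 to 26790) than in the duodenum, and Dnase1 was lower there (804 to 5609) than in the jejunum of the pairs (5653 to 25450). Fabp6, the ileal bile acid binding protein, stood at 18.8 to 373 in the 5 jejunal libraries, at 234100 in the jejunal library of A12 and at 59200 to 423200 in the ileum.

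**Figure D4:**
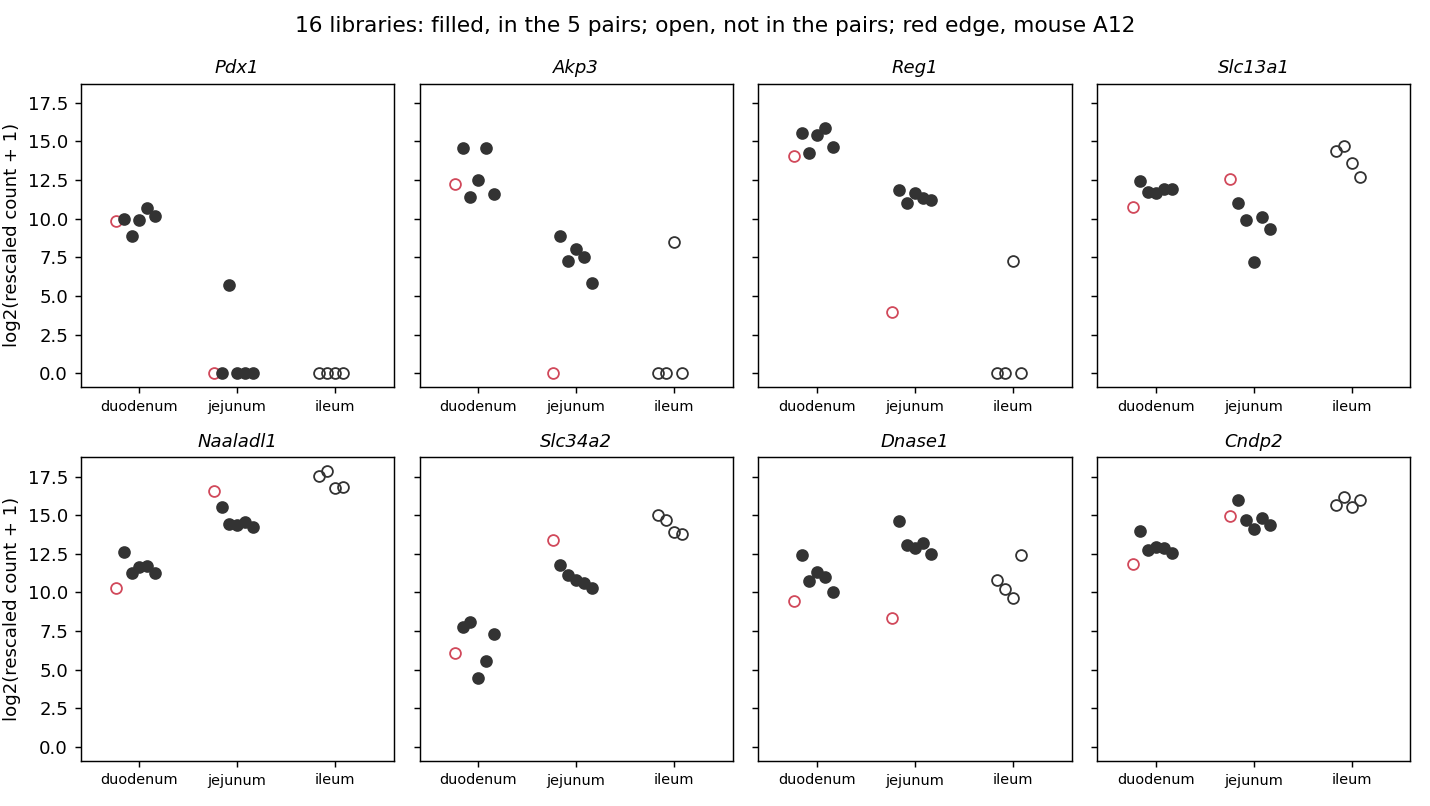
Each point is 1 of 16 libraries, with log2(rescaled count + 1) on the y axis and the segment on the x axis. Filled points are the 10 paired libraries, open points the others, and a red edge marks mouse A12. Pdx1, Akp3 and Reg1 fall from the duodenum to the ileum and Naaladl1 and Slc34a2 rise, while Slc13a1 is lowest and Dnase1 highest in the paired jejunal libraries.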

How the data were processed

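RNA-Seq of GFP+ cells was analysed from the duodenum and jejunum of 5 mice. Reads were aligned by the authors with STAR 2.5.3a to mm10. The authors quantified transcripts with Salmon 0.6.0 and deposited signal values, counts normalized with DESeq2 separately within each segment. In most genes a single factor per library does not turn the values back into whole reads, and count models were not used. The authors also deposited comparisons of VSG with sham (fold changes and p-values), which were not used.

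The tables (48440 genes) were joined by gene identifier. The study states no test between segments, and tables normalized separately can be compared only after joint rescaling. All columns were therefore divided by median-of-ratios factors over 12337 genes with a mean above 50 in both tables, of which 10235 were above 0 in all 10 libraries. The factors were 1.226 to 1.255 in the duodenum and 0.830 to 0.843 in the jejunum. Genes with a mean above 50 over the 10 libraries (12992) were tested on log2(value + 1) with limma 3.58.1 (trend) in R 4.3.3, with mouse as a block. The steps were tested on simulated data. Replicate numbers name the same animal in both segments, by the mouse code in the labels. Deviations of the 2 libraries of a mouse from their segment means correlated weakly (0.025 to 0.093), and in B13, B14 and B1 the duodenal library correlated better with another mouse's jejunal library (0.054, 0.041 and 0.066) than with its own. The block therefore rests on the labels. What 1 read was worth was read from the most common low value of a library and gave the implied depth. Depth limits low genes, and an exact 0 may be a failed estimate. Each mouse gave 1 library per segment.

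Genes named are the 12 largest differences in each direction among called genes with 1 sign in all 5 mice and a mean of at least 200 in the higher segment, without predicted models, and members of the gene lists. Of the called list members, 1 is not reported here. Any other gene is said to be picked after its values were seen. The mice, lists and comparison were chosen with earlier results of these data known. Positions came from GENCODE M21 (GRCm38, 12965 genes matched). Alternatives were other pseudocounts, filters, scalings and thresholds, no trend, no block, A12 included, each mouse left out, each surgery alone, genes with whole reads, and a stem cell covariate. Figures used matplotlib.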

Additional observations from a re-analysis of the deposited data

Results flagged for a closer look

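In 6 of 99 genes screened, 1 mouse's difference between segments lay apart from the other 4 mice, and chance sets a mouse apart in about 1 in 20 genes. The difference of Pdx1 was 3.18 in B13, the mouse with a jejunal value above 0, and 9.91 to 10.7 in the others. Cyp2j6 differed by -2.02 in B10 and by -0.78 to -0.66 in the others. Slc7a7 differed by -0.096 in B14 and by -1.21 to -0.91 in the others, and Cndp2 by -1.16 in B14 and by -1.98 to -1.81 in the others. Olfm4 differed by 2.26 in B10 and by -0.20 to 0.42 in the others. S100g differed by 10.8 in B10, where it was listed at 0 in the jejunum, and by 1.73 to 2.86 in the others.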

How the results depend on the processing

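Depth and 5 pairs limit low genes. In 221 of the 222 called genes all 5 mice shared 1 sign, so that leaving out a mouse could not turn those genes. With A12 included, 183 of the 187 jejunal calls kept their direction. Calls higher in the duodenum and in the jejunum numbered 3841 and 139 on the values as deposited, where the median of all genes was 0.66 instead of 0.10. They numbered 77 and 197 after quantile normalization and 37 and 123 with equal totals for all libraries. Without its trend, limma called 7 and 6. Without the replicate block, 17 and 22 were called, of which 16 and 22 were among the main calls. With A12 included there were 85 and 277, at an adjusted p under 0.05 8 and 34, in VSG mice only 7 and 22, and in sham mice only 20 and 41. Among 3638 genes with whole reads in every library (within 0.01 read), 38 and 133 were called, including all 11 and 67 main calls tested. With the stem cell covariate, added after seeing the data, there were 0 and 0, while all 35 and 187 main calls kept their direction. Leaving out each mouse gave 10 to 24 and 30 to 147. Of the genes on the lists, 55 were called, against 101 as deposited, 5 without trend, 12 without the block, 15 at the stricter threshold, 8 in VSG mice only, 17 in sham mice only, 26 among whole-read genes, 0 with the covariate and 16 to 53 without 1 mouse. The surgery test called 0 genes except without B1, where it called 1381, so that leaving out a mouse gave 0 to 1381. With A12 included, Cd36 (0.35) and Gip (0.15) turned toward the duodenum. With the covariate, Lgr5 (-2.15), Olfm4 (-0.23) and Smoc2 (-0.015) turned toward the jejunum. These genes are part of the sum that formed the covariate, so their turn is no separate result. The causes of these changes were not tested.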
